A study of Mus musculus with 18 samples.

Results

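Complement and acute phase proteins were described here through 9 genes, Saa3, Cfb, C3, C1qa, C1qb, C1qc, C4b, Lcn2 and Hp, taken by symbol from the 19094 protein-coding genes of the deposited count table. All 9 were found. They were chosen by their role as complement and acute phase genes and selected on measured values as well, since Saa3 and Cfb were taken for their lower counts in fibroblasts of transgenic mice. The genotype values in fibroblasts below are therefore a description and carry no test. The samples came from hearts of 6 mice aged 16 months: 3 Bag3-P209L Tg+ mice, which carry a transgene for the P209L form of the co-chaperone BAG3, and 3 age-matched Bag3-WT mice. The sources used here do not name the promoter that drives the transgene. Each mouse gave 2 cardiomyocyte libraries (rep1 and rep2, summed here) and 1 fibroblast library, so 18 libraries became 12 columns, 1 per mouse and cell type, and the mouse was the replicate. The animal codes hold the letter F for Tg+ mice 1 and 3 and Bag3-WT mouse 1 and the letter M for the others, so the letters were not evenly spread over the genotypes.

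Complement is a cascade of plasma proteins that tags particles and cells for removal. C1q, a hexamer of trimers of the C1qa, C1qb and C1qc chains, opens the classical pathway and is made largely by macrophages. C4b, a mouse gene for complement C4, acts next in that pathway, C3 is the protein on which all pathways converge, and Cfb (complement factor B) supplies the protease of the alternative pathway that amplifies C3 cleavage. Saa3 (serum amyloid A 3), Lcn2 (lipocalin 2, which binds bacterial siderophores) and Hp (haptoglobin, which binds free haemoglobin) are acute phase genes. The liver is the classical source of acute phase proteins as a class, while Saa3 and Lcn2 are induced by inflammatory signals in tissue cells and macrophages.

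The 9 genes lie on the minus strand of GRCm38. C1qb (chr4:136880129-136886187), C1qc (chr4:136889804-136893065) and C1qa (chr4:136895917-136898803) form a cluster of 18.7 kb. C4b (chr17:34728380-34743882) and Cfb (chr17:34856374-34862518) share a stretch of 134 kb on the same chromosome as C3 (chr17:57203970-57228136). Saa3 lies at chr7:46711998-46715700, Lcn2 at chr2:32384633-32388252 and Hp at chr8:109575128-109579172. The table has no row for C4a, a near-identical neighbour of C4b, and the Cfb gene is overlapped on its own strand by Gm20547, which is not a row of the table either, so reads could be split or joined for both and their values are uncertain.

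Promoter sequence was at hand from RefSeq (GRCm38.p6) for 5 of the 9 genes, as the 250 bases before the start. Saa3 and C3 are shown because their upstream bases hold the C/EBP-like motif TTGCNNAA, and C1qb because it is 1 of the 3 C1q chains that moved together and holds none of the motifs searched. Capitals mark matches. The Saa3 window is chr7:46715677-46715926, the C3 window chr17:57228137-57228386 and the C1qb window chr4:136886201-136886450, all on the minus strand, and the last 24 bases of the Saa3 window fall in a GENCODE exon. GENCODE exons also cover 151 of the 250 bases taken for C1qc and 197 of those for Lcn2, which are therefore not shown.
Saa3: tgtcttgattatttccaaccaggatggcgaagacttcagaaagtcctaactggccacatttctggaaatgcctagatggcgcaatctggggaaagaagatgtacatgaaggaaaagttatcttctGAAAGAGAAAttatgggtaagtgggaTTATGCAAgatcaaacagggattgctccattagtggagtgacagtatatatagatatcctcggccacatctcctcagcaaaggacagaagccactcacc
C3: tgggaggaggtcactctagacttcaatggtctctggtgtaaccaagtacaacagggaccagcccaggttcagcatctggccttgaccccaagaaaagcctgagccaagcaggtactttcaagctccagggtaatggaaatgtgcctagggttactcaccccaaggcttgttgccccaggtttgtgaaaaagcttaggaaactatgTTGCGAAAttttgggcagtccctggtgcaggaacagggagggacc
C1qb: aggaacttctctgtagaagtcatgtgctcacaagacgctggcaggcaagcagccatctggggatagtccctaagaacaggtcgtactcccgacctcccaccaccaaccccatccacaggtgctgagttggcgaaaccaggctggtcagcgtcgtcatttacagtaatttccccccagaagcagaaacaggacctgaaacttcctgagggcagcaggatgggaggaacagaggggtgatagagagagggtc

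Both strands were searched for 5 motifs. TTGCNNAA lay 99 to 92 bases before the start of Saa3 (as TTATGCAA, read on the other strand), 45 to 38 bases before that of C3 and 216 to 209 bases before that of Lcn2 (TTGCTCAA, within the exon-covered bases), and was in 9.56% of the 32851 mouse promoters of the same length. An interferon-type motif (GAAA, a pair of any bases, then GAAA) lay 125 to 116 bases before the start of Saa3, as GAAAGAGAAA, and was in 2.98% of promoters. C1qc held a kappaB consensus (GGGGCTCTCC, in 7.25% of promoters, here within the exon-covered bases) and the PU.1-type motif GAGGAAGT (as ACTTCCTC, in 2.44%). The STAT-type motif TTCNNNGAA (7.02% of promoters) was in none of the 5 windows. A match is a run of letters and not a measured binding site.

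Library totals ran from 1.22 to 5.64 M (mega) estimated counts in cardiomyocyte rep1, from 9.29 to 13.9 M in rep2 and from 17.3 to 61.3 M in fibroblasts, of which mitochondrial genes took 50.2 to 85.6% in cardiomyocyte and 16.7 to 74.2% in fibroblast libraries. Levels below are CPM, a gene's counts per M counts of its library, scaled by trimmed mean of M values (TMM) over the 12 columns. The labels were checked against marker genes. All 11 cardiomyocyte markers were higher in cardiomyocyte than in fibroblast columns (edgeR, adjusted p below the threshold of 0.05; 7 of 11 with scaling by library size only), but fibroblast columns still held 502 to 1272 CPM of them. Of 12 fibroblast markers 2 were higher and 1 lower in cardiomyocyte columns, so they did not set the preparations apart, though with scaling by library size only 8 were lower and 1 higher. Cardiomyocyte genes were not alone in setting cardiomyocyte columns apart. There edgeR called 6 of 7 mesothelial markers higher and 1 lower, with a median log2 fold change of 2.71. All 8 genes listed for smooth muscle cells and pericytes were called higher too (median 1.71). The median of the 11 cardiomyocyte markers was 1.93. With scaling by library size only, 6 of the 7 and 4 of the 8 were still called higher. Of 13 macrophage markers 12 were lower in cardiomyocyte columns, and none was at 0. Their summed level was 327 to 1184 CPM there and 1727 to 5358 CPM in fibroblast columns. The cardiomyocyte column of Tg+ mouse 3 stood apart, with the lowest summed macrophage markers of the 6 (327 CPM) and the lowest or tied lowest count of every member.

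The C1q chains separated the preparations most clearly. C1qa stood at 148, 187 and 49.3 CPM in cardiomyocyte columns of Tg+ mice 1 to 3 and at 126, 233 and 177 CPM in those of Bag3-WT mice. In the fibroblast columns it stood at 509, 570 and 245 CPM in the Tg+ mice and 857, 735 and 752 CPM in the Bag3-WT mice. Every fibroblast column was above every cardiomyocyte column, and within each of the 6 mice the cardiomyocyte column was the lower one. C1qa was 4.09-fold lower in cardiomyocytes (log2 fold change -2.03, SE 0.22, adjusted p = 4.19e-05, edgeR quasi-likelihood test with the mouse as block).

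C1qb was lower by 4.32-fold (log2 fold change -2.11, SE 0.21, edgeR adjusted p = 2.31e-05), with means of 134 ± 49.0 CPM in cardiomyocyte and 572 ± 185 CPM in fibroblast columns (SD, n = 6 each). C1qc was lower by 4.49-fold (log2 fold change -2.17, SE 0.21, edgeR adjusted p = 1.74e-05), with 135 ± 53.1 and 600 ± 222 CPM. For these chains too no cardiomyocyte column reached a fibroblast column. The rule did not use the cell type, and 3 of the 9 members, the C1q chains, were lower in cardiomyocytes without overlap and 0 higher, where 15.8% of the 13891 genes tested were lower and 9.71% higher.

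C4b, which follows C1q in the classical pathway, fell by 1.44 on the log2 scale (SE 0.30, edgeR adjusted p = 0.00275). It stood at 152, 97.4 and 12.2 CPM in cardiomyocyte columns of the Tg+ mice and 116, 162 and 56.0 CPM in those of the Bag3-WT mice. The fibroblast columns held 186, 244 and 72.2 CPM and 330, 285 and 259 CPM. The groups overlapped through the fibroblast column of Tg+ mouse 3, yet the cardiomyocyte column was lower in 6 of 6 mice. With only the 3 Tg+ mice the fold change was -1.37 and the adjusted p was 0.118.

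Saa3, the acute phase gene that passed the test, was also lower in cardiomyocytes. Its counts in cardiomyocyte columns were 55, 11 and 0 in Tg+ mice 1 to 3 and 4, 30 and 56 in Bag3-WT mice, against 113, 70 and 47 and 520, 303 and 359 in fibroblast columns. The cardiomyocyte column was lower in 6 of 6 mice, and the columns of different mice overlapped. The log2 fold change was -1.80 (SE 0.52, edgeR adjusted p = 0.0159). A count of 0 in Tg+ mouse 3 allows up to 3 counts, or 0.412 CPM, by counting error alone. The call was lost with only the 3 Tg+ mice (adjusted p = 0.253) and with no mouse block (adjusted p = 0.0668).

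C3 did not pass the test between preparations. Its cardiomyocyte columns held 844, 655 and 99.1 CPM in Tg+ mice and 679, 794 and 280 CPM in Bag3-WT mice, and its fibroblast columns 591, 1020 and 555 CPM and 363, 1013 and 652 CPM. Within mice the cardiomyocyte column was lower in 4 of 6, and the log2 fold change was -0.53 (SE 0.40, edgeR adjusted p = 0.306). Cfb gave a log2 fold change of -0.46 (SE 0.28, edgeR adjusted p = 0.204) and Lcn2 of -0.62 (SE 0.45, edgeR adjusted p = 0.276), lower in 4 of 6 and 5 of 6 mice. Hp reached -1.67 (SE 0.68, edgeR adjusted p = 0.0664) and was lower in 5 of 6 mice, on counts of 103, 78 and 0 in Tg+ and 4, 15 and 0 in Bag3-WT cardiomyocyte columns. Hp was called with DESeq2 (adjusted p = 0.00499), without Tg+ mouse 1 (0.0325) and in Bag3-WT mice only (0.0256).

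In all, 5 of 9 members passed the test as lower in cardiomyocytes and 0 as higher, where 24.9% of all genes tested were called lower and 19.7% higher. All 9 log2 fold changes were below 0, with a median of -1.67 against -0.04 for all genes. In these bulk preparations, fewer cells of a type and less RNA per cell cannot be told apart.

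**Figure D1:**
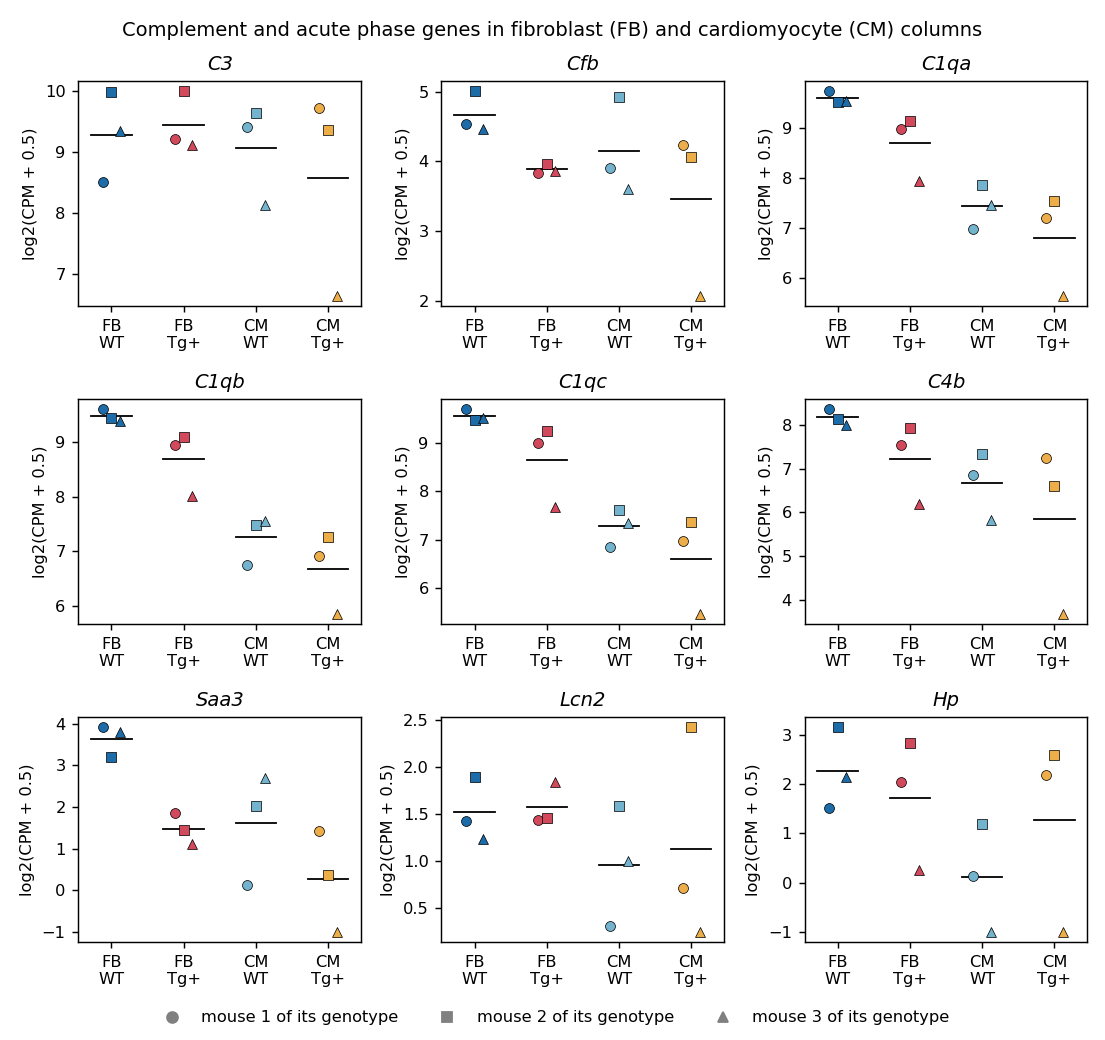
Level of each member as log2(CPM + 0.5), 1 point per mouse (circle, square and triangle for mice 1, 2 and 3 of a genotype) and a line at the group mean, for fibroblast (FB) and cardiomyocyte (CM) columns of Bag3-WT and Tg+ mice. The C1q chains and Saa3 sit highest in Bag3-WT fibroblasts, and the triangle of Tg+ cardiomyocytes is the lowest point in its panel or tied with another.

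**Figure D2:**
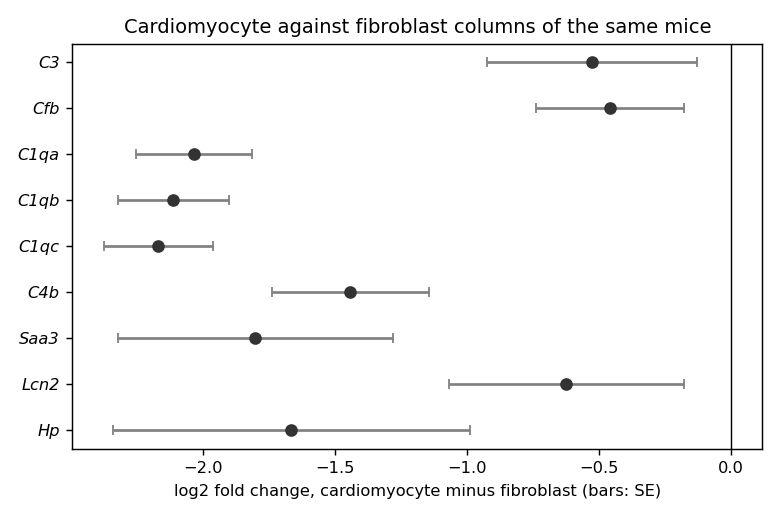
Log2 fold change of each member between cardiomyocyte and fibroblast columns of the same 6 mice, with bars of 1 SE. All 9 points lie below 0, from -2.17 for C1qc to -0.46 for Cfb.

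Per kilobase of annotated exon, the C1q chains stood highest in Bag3-WT fibroblasts, at 751 ± 63.8 CPM per kb for C1qa, 656 ± 50.3 for C1qb and 392 ± 32.2 for C1qc (SD, n = 3). C3 followed at 131 ± 63.4 CPM per kb and C4b at 51.2 ± 6.31. Cfb stood at 8.95 ± 1.96, Saa3 at 4.66 ± 1.20, Hp at 3.05 ± 1.94 and Lcn2 at 0.919 ± 0.269. Hp and Saa3, neighbours in that order, differ by less than their spread. In Bag3-WT cardiomyocytes C1qa had 172 ± 51.6, C1qb 145 ± 40.7 and C3 114 ± 52.4 CPM per kb, and each neighbouring pair in that order differs by less than its spread. In Tg+ fibroblasts the order was C1qa (424 ± 166 CPM per kb), C1qb (397 ± 141), C1qc (229 ± 110), C3 (140 ± 50.3) and C4b (29.4 ± 15.4). In Tg+ cardiomyocytes C1qa (123 ± 68.2), C3 (104 ± 75.3) and C1qb (101 ± 44.6) differed by less than their spread.

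The C1q chains moved as one across the 12 columns. Their log2 levels correlated pairwise with Pearson's r of 0.990 to 0.998 over the 12 columns, given as a description because columns share mice and preparations. Per kilobase, C1qa made up 38.6 to 45.7% of the summed C1q level in each column, C1qb 33.6 to 43.0% and C1qc 18.3 to 23.1%. The genes whose levels were most like theirs, among 8878 genes, were Pld4, Ctss and Fcrls for C1qa (r = 0.995, 0.995 and 0.994), Cd300ld, Aoah and F13a1 for C1qb (0.996, 0.995 and 0.994) and Fcrls, Unc93b1 and Adgre1 for C1qc (0.996, 0.996 and 0.995). Ctss and Adgre1 are on the macrophage marker list.

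The summed CPM of the C1q chains was 0.410 to 0.553 of the summed CPM of the 13 macrophage markers in every column, in cardiomyocytes and fibroblasts and in both genotypes. Of the 13 markers Lyz2 had the most counts in every column, from 1539 to 66806, so it weighed most in the marker sum. The C1q sum itself ranged from 151 CPM in the cardiomyocyte column of Tg+ mouse 3 to 2460 CPM in the fibroblast column of Bag3-WT mouse 1. The ratio of C4b to the C1q sum varied more, from 0.0812 to 0.386.

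**Figure D3:**
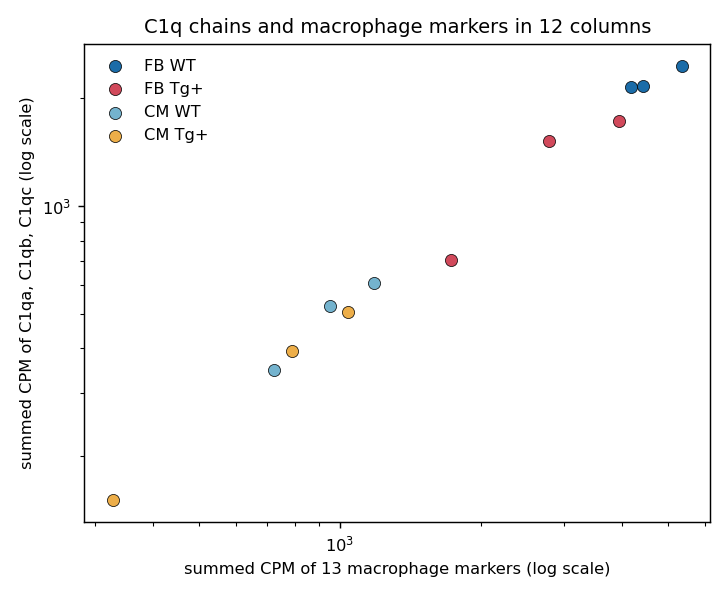
Summed CPM of C1qa, C1qb and C1qc against the summed CPM of 13 macrophage markers, both on log scales, with 1 point for each of the 12 columns. The points rise together from 151 against 327 CPM to 2460 against 5358 CPM, with Bag3-WT fibroblasts highest.

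Other members were most like other genes. C3 was most like Vit, Lamb2 and Ext2 (r = 0.970, 0.968 and 0.964) and Cfb most like Ly6e, Fam207a and Tspo (0.971, 0.940 and 0.931). C4b was most like H2-T23, St6gal1 and Gm2a (0.982, 0.982 and 0.980), Saa3 most like Ltc4s, Bak1 and Evi2b (0.954, 0.936 and 0.918), Hp most like Rtfdc1, Ip6k1 and G6pc3 (0.939, 0.936 and 0.936) and Lcn2 most like Snrpb2 (0.874). C3 and Hp correlated with r = 0.825 and Cfb and C4b with r = 0.882, while C3 and C1qb reached 0.460. For Saa3, Hp and Lcn2 these figures rest on low counts.

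In fibroblasts, the comparison that the choice of genes used, Saa3 had the largest difference between genotypes among the members. It stood at 3.11, 2.21 and 1.64 CPM in Tg+ mice 1 to 3 and at 14.5, 8.60 and 13.3 CPM in Bag3-WT mice, so every Tg+ column lay below every Bag3-WT column. The log2 difference was -2.36 (SE 0.30, n = 3 each), 5.14-fold lower in Tg+ fibroblasts, and it ran from -2.63 to -2.16 when each mouse was left out in turn. With the letter of the animal code in the model it was -2.44. Cfb stood at 13.7, 15.1 and 14.0 CPM in Tg+ and at 22.6, 31.6 and 21.6 CPM in Bag3-WT fibroblasts, a log2 difference of -0.81 (SE 0.19). With each mouse left out in turn it ran from -0.90 (without Bag3-WT mouse 3) to -0.60 (without Bag3-WT mouse 2), and was -0.78 without Tg+ mouse 3. It was -0.74 with the letter in the model and -0.52 with scaling by library size only.

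C1qa, C1qb, C1qc and C4b were lower in all 3 Tg+ fibroblast columns too, with log2 differences of -0.81, -0.71, -0.76 and -0.78 (SE 0.33, 0.31, 0.39 and 0.41). The lowest column was that of Tg+ mouse 3, and without it the log2 differences were -0.51, -0.43, -0.40 and -0.41. With scaling by library size only they were -0.42, -0.33, -0.37 and -0.37. The summed macrophage markers moved the same way, from 4168 to 5358 CPM in Bag3-WT to 1727 to 3935 CPM in Tg+ fibroblasts, with all 13 markers lower in direction, 8 of them without overlap (7.58% of all genes tested were lower without overlap) and a median log2 difference of -0.73. The part of the macrophage markers in these differences was not tested.

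Set against the macrophage marker sum of the same column, in which Lyz2 weighed most, the members parted. Per 1000 CPM of markers, Saa3 stood at 0.561 to 1.11 CPM in Tg+ and 2.06 to 3.01 CPM in Bag3-WT fibroblasts, so its columns stayed apart. Saa3 was chosen for its lower counts in Tg+ fibroblasts, so this too is a description. Cfb stood at 3.85 to 8.12 and 4.22 to 7.59 CPM, C1qa at 142 to 183 and 160 to 176 CPM, and C4b at 41.8 to 66.8 and 58.5 to 68.4 CPM, so the genotypes overlapped for these genes.

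C3 (log2 difference 0.10, SE 0.43), Lcn2 (0.06, SE 0.30) and Hp (-0.42, SE 0.73) overlapped between genotypes in fibroblasts. The ratio of C3 to Cfb CPM was 39.6 to 67.4 in Tg+ and 16.1 to 32.0 in Bag3-WT fibroblasts. Cfb was chosen for its lower counts in Tg+ fibroblasts, so this split follows in part from the choice. Over the members, 6 of 9 were lower and 0 higher in Tg+ fibroblasts without overlap, where 7.58% of all 13571 genes were lower and 5.51% higher. The 6 include Saa3 and Cfb, which were chosen for being lower here, so the count is partly set by the choice. Across all genes edgeR called 0 between the genotypes in fibroblasts, with 690 at an unadjusted p below 0.05 (5.08%), while DESeq2 called 6 and limma voom 0.

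In cardiomyocytes, where the comparison was not used to choose the genes, no member passed the test. All 9 groups of columns overlapped, where 2.60% of the 12439 genes tested were lower and 2.27% higher without overlap. Of the 9 log2 fold changes 7 were below 0, with a median of -0.48 against 0.01 for all genes. edgeR called 0 genes of all tested, with 89 at an unadjusted p below 0.05 (0.715%), DESeq2 3 and limma voom 0.

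Saa3 stood at 2.17, 0.783 and 0 CPM in Tg+ and 0.594, 3.55 and 5.98 CPM in Bag3-WT cardiomyocytes, a log2 fold change of -1.68 (SE 1.17, edgeR adjusted p = 0.9997). Cfb stood at 18.3, 16.2 and 3.71 CPM and at 14.6, 29.9 and 11.6 CPM, with a fold change of -0.53 (SE 0.61). The mice of the 2 genotypes interleave in both. Leaving out 1 mouse at a time moved Saa3 between -2.92 (without Tg+ mouse 1) and -1.01 (without Bag3-WT mouse 3), and moved Cfb to -0.11 without Tg+ mouse 3 and to -0.01 without Bag3-WT mouse 2. Hp stood at 4.07, 5.55 and 0 CPM in Tg+ and 0.594, 1.78 and 0 CPM in Bag3-WT cardiomyocytes, with a log2 fold change of 2.04 (SE 1.495), the largest upward value among the members. With 1 mouse left out at a time, Hp ran from 1.43 (without Tg+ mouse 2) to 3.54 (without Bag3-WT mouse 2). Lcn2 gave 0.50 (SE 0.89), with 1.15, 4.84 and 0.687 CPM against 0.742, 2.49 and 1.495 CPM, and turned to -0.75 without Tg+ mouse 2.

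C3 gave -0.13 (SE 0.75), C4b -0.35 (SE 0.78) and the C1q chains -0.48, -0.51 and -0.50 (SE 0.52, 0.44 and 0.50). These values moved with single mice. Without Tg+ mouse 3 C1qa, C1qb and C1qc gave -0.09, -0.20 and -0.12, and C3 and C4b turned to 0.36 and 0.17. Without Bag3-WT mouse 2 the chains gave -0.23, -0.40 and -0.31, and C3 and C4b turned to 0.17 and 0.04. Without Bag3-WT mouse 1 C3 was 0.04. Without Tg+ mouse 2 the chains gave -0.85, -0.82 and -0.89, and without Tg+ mouse 1 C4b gave -0.98. Under scaling by library size only, C3, Cfb, C4b and the C1q chains all turned to values above 0 in this comparison. The 13 macrophage markers were lower in direction in the same fit, with a median of -0.41. Whether the genotype difference of Saa3 or Cfb differs between fibroblasts and cardiomyocytes was not tested.

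**Figure D4:**
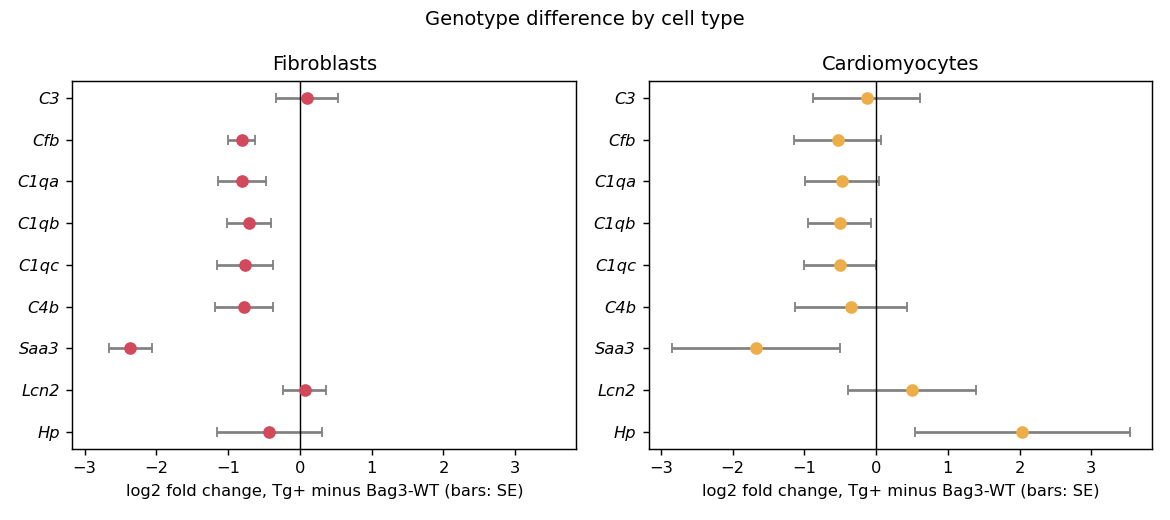
Log2 difference between Tg+ and Bag3-WT mice for each member, in fibroblasts (left) and cardiomyocytes (right), with bars of 1 SE. In fibroblasts Saa3 lies at -2.36 and C3 and Lcn2 near 0, and in cardiomyocytes the bars are wider, with Hp at 2.04 and Saa3 at -1.68.

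The rest of the pathway was read from lists of related genes. Of all 13891 genes tested, 24.9% were called lower and 19.7% higher in cardiomyocyte columns, and the list counts below stand beside these shares. Complement receptors, which bind cleaved complement on leukocytes, were lower in cardiomyocyte columns in 9 of 10 genes tested and higher in 0. C5ar1 and C3ar1, the receptors of the anaphylatoxins C5a and C3a, gave log2 fold changes of -4.14 and -3.91 (edgeR adjusted p = 9.08e-07 and 2.71e-06). The integrin genes Itgb2 and Itgam, which form complement receptor CR3, gave -2.88 and -2.41. The list's median was -2.07 against -0.04 for all genes.

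Among the classical and lectin pathway genes, 3 of 8 were higher and 2 lower in cardiomyocytes, where 19.7% of all genes tested were higher and 24.9% lower. C2, the neighbour of Cfb and the partner of C4b in the classical C3 convertase, was higher (log2 fold change 1.97, SE 0.31, edgeR adjusted p = 0.000504), with 21.5 ± 6.80 CPM in cardiomyocyte and 6.10 ± 3.56 in fibroblast columns (n = 6 each). Gm20547 (chr17:34856412-34882042) overlaps C2 (chr17:34862604-34898265) on the same strand too, so the values of C2 are uncertain as those of Cfb are. C1rb, a protease of the C1 complex, was higher by 4.87 (SE 0.93), but at 8.73 ± 16.4 against 0.139 ± 0.185 CPM its columns overlapped and 1 cardiomyocyte column, that of Tg+ mouse 3, held 307 of its 470 counts. Without that mouse its log2 fold change was 3.92 (edgeR adjusted p = 0.000839). Colec11, a soluble collectin, was higher by 0.99 (SE 0.28), and Fcna, a ficolin, was lower, at -1.78 (SE 0.23). Colec12, named after its value was seen, gave -0.49. Of the alternative pathway genes 1 of 2 was lower (Cfp, properdin, -2.34), of the terminal pathway genes 1 of 3 (C6, -1.90), and of the 7 regulators 2 were higher, Clu (1.24) and Cd59a (1.36), both inhibitors of the membrane attack complex. The calls were lost for Colec11 without Tg+ mouse 1 (edgeR adjusted p = 0.0592) or Tg+ mouse 2 (0.0622), for C6 without Bag3-WT mouse 3 (0.0603) and for Colec12 without any 1 mouse other than Tg+ mouse 3 (0.0509 to 0.111). With scaling by library size only, C2 and C1rb were still called higher (1.07 and 4.30), while Colec11 (0.08), Clu (0.33) and Cd59a (0.48) were not called, and 4 of the 7 regulators were called lower.

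Of the lists, the inducers of acute phase genes had the lowest median, -3.05: 23 of 25 were lower in cardiomyocyte columns. The cytokines Tnf, Il1a and Lif gave log2 fold changes of -7.56, -8.47 and -5.07, and Nfkb2, an NF-kappaB subunit, gave -3.47 (edgeR adjusted p = 5.21e-07, 5.96e-07, 1.54e-06 and 9.85e-07). Tnf stood at 1.49 ± 0.756 CPM in cardiomyocyte and 288 ± 95.9 CPM in fibroblast columns (SD, n = 6 each). Other acute phase genes were lower in 7 of 14 tested and higher in 0, where 24.9% of all genes tested were lower and 19.7% higher. The lower ones were led by Il1rn, the interleukin-1 receptor antagonist (-8.02), Mt1, a metallothionein (-3.05), Hpx, the haem-binding hemopexin (-4.74), and Ptx3, a pentraxin (-3.77). Hpx had at most 28 counts in a column and 0 in 5 of the 12. In cardiomyocyte columns Hpx averaged 0.0132 CPM and Il1a 0.200 CPM, where 3 counts were 0.119 to 0.445 CPM. The sizes of these 2 fold changes are therefore uncertain.

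Binding partners of the acute phase proteins were lower in 5 of 10 and higher in 1, where 24.9% of all genes tested were lower and 19.7% higher. Cd163, the macrophage receptor for haptoglobin bound to haemoglobin, gave a log2 fold change of -2.50. Hmox1, which breaks down haem, gave -6.64, Tlr2, a receptor of bacterial lipoproteins, -5.50 and Mmp9, which binds the LCN2 protein, -2.03. Fpr2, a receptor for serum amyloid A, and Lrp2, which takes up LCN2, were named after their values were seen: Fpr2 gave -2.92 and Lrp2 2.12, the latter not called with scaling by library size only (1.14, adjusted p = 0.0687). Slc22a17, a receptor for LCN2, gave 0.01 (edgeR adjusted p = 0.986).

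**Figure D5:**
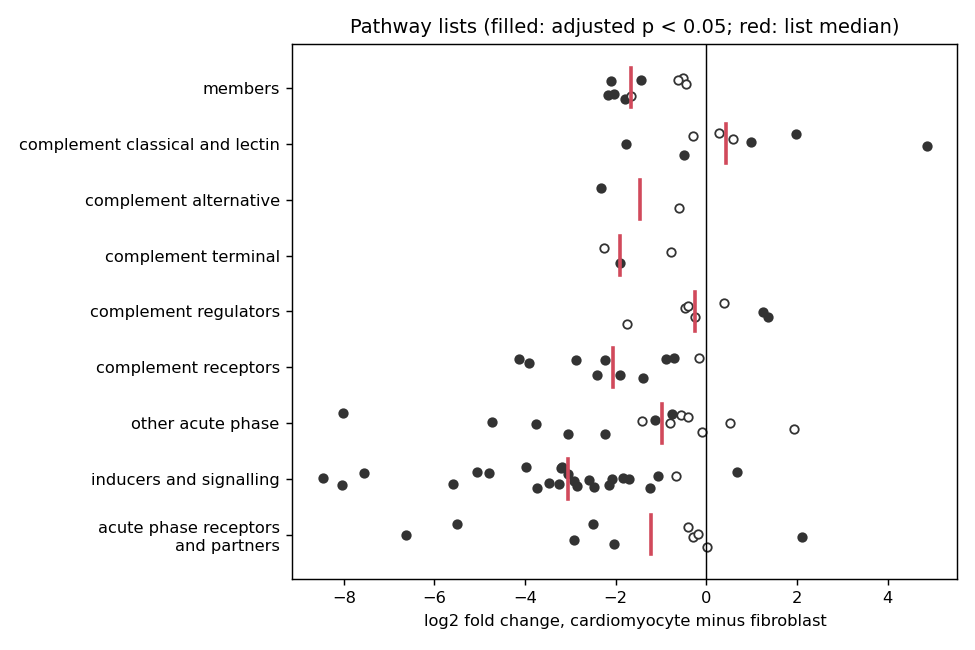
Log2 fold change between cardiomyocyte and fibroblast columns for the members and each list of related genes, 1 point per gene tested, filled where the adjusted p is below 0.05, with the list median as a red line. Inducers and receptors lie mostly below 0, at medians of -3.05 and -2.07, while classical and lectin pathway genes lie on both sides.

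Between genotypes edgeR called 0 genes of every list in both cell types. Several genes whose classical source is the liver had few counts: over the 12 columns the highest count was 4 for Saa1, 1 for Saa2, 1 for Fga, 1 for Fgg, 5 for Crp and 1 for Serpina1a. Others of the acute phase list were well counted, with up to 2883 counts for Cp (ceruloplasmin), 1077 for Lbp and 820 for A2m. Of the hepatocyte markers Alb had at most 6 counts in a column, while Ahsg reached 1351. Of the neutrophil markers Ly6g had at most 4 counts, while Csf3r reached 1467 and S100a9 459. Ltf had 907 counts in the cardiomyocyte column of Tg+ mouse 1 and at most 17 in any other column. These genes were named after their values were seen. The summed markers reached 53.8 CPM for hepatocytes, 58.6 CPM for neutrophils and 1.19 CPM for adipocytes. The airway marker Scgb1a1 had 4398 counts in the cardiomyocyte column of Tg+ mouse 1 and 0 to 89 in the others. Bpifa1, Cyp2f2 and Scgb3a2, also named after their values were seen, had 20181, 2045 and 1919 counts in that column. In the others they had at most 343, 55 and 33. The summed airway markers of the cardiomyocyte column of Tg+ mouse 1 reached 1132 CPM, against 790 CPM of macrophage markers. The part of airway transcripts in the values of that column was not tested.

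The rep1 and rep2 libraries of a mouse agreed for the abundant members. The ratio of rep1 to rep2 level ran from 0.937 to 1.11 for C3, 0.960 to 1.25 for C1qa and 0.892 to 1.10 for C1qc. C4b ran from 0.466 to 1.177, its lowest ratio from Tg+ mouse 3, and Saa3 from 0.478 to 1.81 in the 3 mice with enough counts. Bag3 itself was counted in every column, at 403 to 1568 counts in cardiomyocyte and 2566 to 7000 in fibroblast columns. Nothing in the labels tells whether reads of the transgene are among these.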

How the data were processed

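The table the authors deposited holds expected counts, 44.6% of them not whole. Per the submitters' processing notes, the build was GRCm38.p6 and the tools listed, without a role, were R 3.4.4, kallisto 0.44.0 and DESeq2 1.18.1. A deposited normalized table was not used. The 2 cardiomyocyte libraries of a mouse were summed, and counts rounded. Genes were filtered with filterByExpr, scaled by TMM and tested with edgeR 4.0.16 (R 4.3.3; robust quasi-likelihood, two-sided, Benjamini-Hochberg over all genes tested, threshold 0.05), by cell type within mice and by genotype within each cell type; limma 3.58.1 and DESeq2 1.42.0 gave alternatives. SE is the log2 fold change divided by the root of F. Positions and exon lengths came from GENCODE on GRCm38. The fits were also run on simulated counts drawn without mouse effects, so that run does not bear on how they treat differences between mice. P-values of the genotype fits measure the spread between these mice. Those of the cell type fit, with the mouse as block, measure how much the difference between preparations varied from mouse to mouse. Floors cover counting error only. Members and lists were chosen with earlier results of these data known. From each list up to 4 called genes with the lowest p were named, and for each member the 3 genes with the highest r (1 shown for Lcn2) among those with a mean of at least 5 CPM. The result of 1 listed gene is not reported here.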

Additional observations from a re-analysis of the deposited data

How the results depend on the processing

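The 5 members called by cell type were 5 or 6 when each mouse was left out in turn, with 5038 to 6821 genes called in all against 6190. Scaling by library size only moved the median of all genes by cell type to -0.95 and gave 9 members called, with 457 genes higher and 6616 lower in place of 2734 and 3456. Tg+ mice only gave 1628 genes and 3 members, and Bag3-WT mice only gave 3777 genes. By genotype in cardiomyocytes DESeq2 called 3 genes and library size only 2, and in fibroblasts 6 and 2. Under that scaling the all-gene median was 0.84 in cardiomyocytes, with C3 at 1.10, Cfb at 0.57, C1qa at 0.44, C1qb at 0.32, C1qc at 0.39 and C4b at 0.91, and it was 0.36 in fibroblasts, with Cfb at -0.52. Leaving out each mouse in turn gave, in cardiomyocytes, -0.59 to 0.36 for C3, -0.98 to 0.17 for C4b and -0.75 to 1.00 for Lcn2, and in fibroblasts -0.23 to 0.52 for C3, -0.10 to 0.34 for Lcn2 and -1.17 to 0.23 for Hp. With the letter of the animal code as covariate Hp in fibroblasts was 0.013. The cause of these changes was not tested. With the mouse as block and rep number as a covariate over the 12 cardiomyocyte libraries, limma voom called 0 genes and 0 of the members tested. Saa3, Lcn2 and Hp did not pass the count filter of that fit and were not tested in it. The fit to summed libraries had called 0 as well. Libraries of different genotype with the same rep number were compared by their deviations from the group means. These deviations had a mean r of 0.01, from -0.48 to 0.44. The low counts of Saa3, Hp and Lcn2 in cardiomyocytes limit what could be seen there.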
